A study of Mus musculus with 6 samples.

Results

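The genes described here are 10 members of the Notch pathway: the receptor genes Notch1, Notch2 and Notch3, the nuclear cofactor genes Rbpj and Maml1, and the target genes Dtx1, Nrarp, Hes1, Hes5 and Ptcra. They were chosen by name, as a pathway that Ikaros is known to repress in T cells, and make up 10 of the 22098 gene names in the deposited table. Where a name had several transcripts, the one with the highest mean level stood for the gene. Poly(A)-enriched RNA had been sequenced from sorted IgM+ B cells of the marrow of mice with the C57BL/6 background, aged 6 weeks, with 2 libraries from wild-type mice (WT), 2 from Ikaros_ZnF1-/- mice, whose Ikaros lacks its finger 1 (the ZnF1 mutant), and 2 from Ikaros_ZnF4-/- mice, whose Ikaros lacks finger 4 (the ZnF4 mutant). All 3 groups share strain, age, tissue and sort, and how the fingers were deleted is not given in the sources used here. Sex is not shared: by the levels of Xist and Ddx3y, replicate 2 of both mutants was male and every other library, with both of WT, was female. The labels do not say that the libraries came from separate animals. In each mutant the libraries differed in sex and so came from different animals, whereas for WT this is not known. The p-values reflect only how far these libraries spread, and in WT that spread may be technical. Levels are RPKM, read numbers scaled to transcript length and to the library's read total, and are printed for each library.

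Notch receptors are cut after they bind a ligand on a neighbouring cell, and the freed intracellular part enters the nucleus. There it joins the DNA-binding protein RBPJ and a Mastermind coactivator such as MAML1 and switches on target genes, while RBPJ without Notch recruits corepressors. In B cells, NOTCH2 signalling directs the marginal zone fate, whereas NOTCH1 commits progenitors to the T cell lineage. Ikaros is a zinc finger protein whose central fingers read a core of the letters GGGAA, and RBPJ reads TGGGAA, so the letters that the proteins read overlap.

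The sequences just upstream of 5 of the genes are shown because 3 of them (Dtx1, Nrarp and Hes5) had lower values in the ZnF4 mutant than in WT, Rbpj had higher values there, and Ptcra was listed at 0. Each is the 250 bases before the gene's start in RefSeq, build GRCm38.p6, written 5′ to 3′ on the strand of the gene. Capitals mark TGGGAA, or TTCCCA where it lies on the opposite strand. Dtx1 lies at chr5:120711670-120711919 on the minus strand, Nrarp at chr2:25180508-25180757 on the plus strand, Hes5 at chr4:154960673-154960922 on the plus strand, Rbpj at chr5:53590096-53590345 on the plus strand and Ptcra at chr17:46763713-46763962 on the minus strand.
Dtx1: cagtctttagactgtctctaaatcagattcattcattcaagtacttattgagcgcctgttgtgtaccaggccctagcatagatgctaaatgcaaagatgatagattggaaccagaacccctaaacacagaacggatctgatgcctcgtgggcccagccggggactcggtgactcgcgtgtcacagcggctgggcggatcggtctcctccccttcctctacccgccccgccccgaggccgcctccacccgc
Nrarp: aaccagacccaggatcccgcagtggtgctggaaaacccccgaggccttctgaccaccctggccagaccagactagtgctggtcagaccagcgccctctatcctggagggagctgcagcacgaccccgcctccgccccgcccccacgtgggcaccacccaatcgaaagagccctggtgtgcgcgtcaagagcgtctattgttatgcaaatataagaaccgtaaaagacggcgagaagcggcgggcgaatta
Hes5: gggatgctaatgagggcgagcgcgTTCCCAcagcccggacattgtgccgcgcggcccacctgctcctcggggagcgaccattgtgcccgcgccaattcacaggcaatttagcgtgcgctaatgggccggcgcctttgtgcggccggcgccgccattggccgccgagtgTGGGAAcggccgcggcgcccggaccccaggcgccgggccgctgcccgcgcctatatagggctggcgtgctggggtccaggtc
Rbpj: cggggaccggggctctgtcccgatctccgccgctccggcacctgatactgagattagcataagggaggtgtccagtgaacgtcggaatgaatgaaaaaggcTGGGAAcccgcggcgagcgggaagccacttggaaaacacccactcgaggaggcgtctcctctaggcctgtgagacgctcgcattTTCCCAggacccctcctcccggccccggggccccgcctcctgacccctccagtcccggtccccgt
Ptcra: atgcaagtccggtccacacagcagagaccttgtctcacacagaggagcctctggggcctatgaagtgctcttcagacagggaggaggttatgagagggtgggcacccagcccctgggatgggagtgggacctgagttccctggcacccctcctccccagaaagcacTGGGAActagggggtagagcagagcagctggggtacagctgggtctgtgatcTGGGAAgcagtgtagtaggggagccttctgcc

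TGGGAA was searched on both strands in the 250 bases upstream of 32851 RefSeq starts, and 21.6% of those windows held it. Among the 9 of 10 genes with a window in the table (Hes1 had no entry), 3 genes held it: Hes5, Rbpj and Ptcra, each with 2 matches at the start shown. In Hes5 the matches lay 82 to 77 bases upstream on the gene's strand and 226 to 221 bases upstream on the opposite strand, and both extended to GTGGGAA, which 5.42% of all windows held. The Rbpj matches lay 149 to 144 and 65 to 60 bases upstream, the second on the opposite strand. Those of Ptcra lay 84 to 79 and 32 to 27 bases upstream. Dtx1, Nrarp, Notch1 and Notch3 held neither TGGGAA nor the shorter GGGAA, which 56.2% of windows held and which overlaps every TGGGAA. Notch2 and Maml1 held GGGAA without TGGGAA. These are matches of letters in short windows and carry no information on binding.

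The libraries had the profile of B cells, with a summed level of 8 B cell marker genes between 4685 and 5700 RPKM. The T cell receptor complex genes Cd3d, Cd3e and Cd3g were at or below 0.8 RPKM in every library, and the summed level of all 14 T cell markers lay between 33.9 and 38.4 RPKM, mostly Lck and Cd247. Within that sum Cd4 was at 0.6 and 0.9 RPKM in WT, 4.2 and 4.5 in ZnF1 and 1.1 and 1.4 in ZnF4 libraries, and it rose in the ZnF1 mutant (1.97, limma adjusted p = 0.0347). Cd8a was at 0.2 in both WT libraries, 1.2 and 1.5 in ZnF1 and 0.1 and 0.2 in ZnF4. Their part in the results on the Notch genes was not tested. ZnF1 replicate 2 stood apart in RNA of other marrow cells, with 17 granulocyte and monocyte markers summing to 8447 RPKM against 1560 to 2106 in the other mutant libraries and 511 and 810 in WT, and 7 erythroid markers to 509 against 78.5 to 198. WT replicate 1 stood apart in plasma cell RNA, with 5 markers summing to 602 RPKM against 110 to 203 in the other libraries, most of it Igj in that library. Xist was listed at 0 and Ddx3y was present in replicate 2 of both mutants, and the reverse held in the other 4 libraries. No WT library had the male pattern, so each mutant against WT also sets libraries of mixed sex against female ones. Ikzf1, the Ikaros gene, was at 177 and 179 RPKM in WT, 201 and 168 in the ZnF1 libraries and 287 and 244 in the ZnF4 libraries. A single value per transcript does not show whether a finger's exon was missing.

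**Figure D1:**
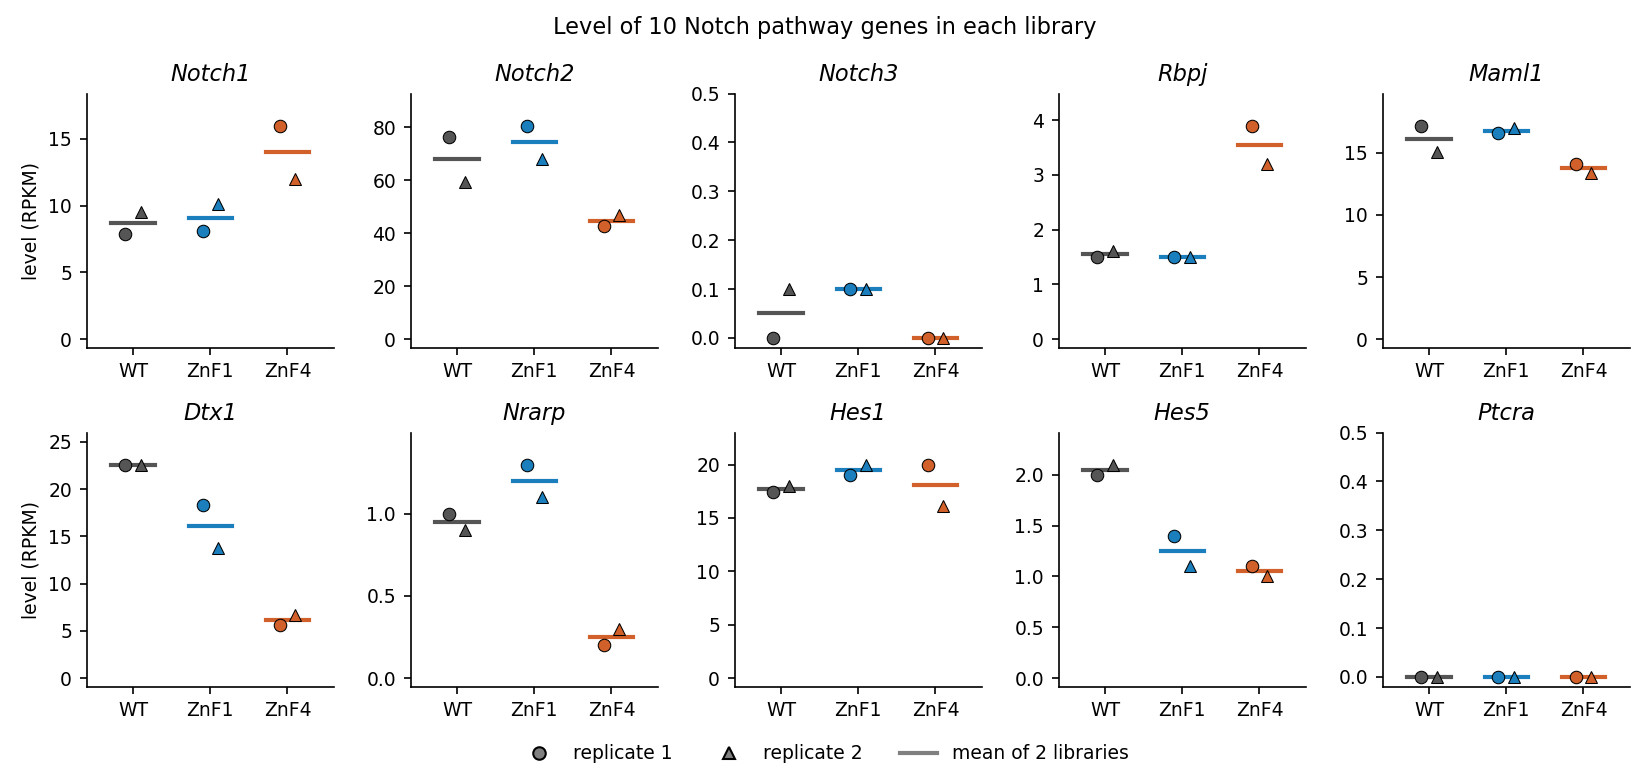
Level (RPKM, linear axis, own scale for each gene) of the 10 genes in each of the 6 libraries, with circles for replicate 1, triangles for replicate 2 and a bar at the mean of the 2 libraries. Dtx1 lies near 22.5 in WT and at 5.6 and 6.7 in the ZnF4 mutant, while Hes1 lies between 16.1 and 20 in all libraries.

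Differences are given on the scale log2(RPKM + 0.5), which understates the change of weakly expressed genes, and were tested with limma over 10322 genes with a mean of at least 1 RPKM. Of the 10 genes, 7 passed that filter and were tested; Nrarp, Notch3 and Ptcra did not and are described by their levels. A gene was called at a Benjamini-Hochberg adjusted p under 0.05 over all tested genes. In these bulk libraries, fewer cells that express a gene and less of its RNA per cell cannot be told apart.

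Among the receptors, Notch2 was by far the most abundant, Notch1 followed, and Notch3 was listed at 0 or 0.1 RPKM in every library. Notch2, the receptor of marginal zone B cells, was at 76.2 and 59.4 RPKM in WT, 80.6 and 68.0 in the ZnF1 libraries and 42.7 and 46.8 in the ZnF4 libraries. Both ZnF4 libraries lay below all 4 others. The difference from WT was -0.58 in the ZnF4 mutant (SE 0.16, 95% interval -0.96 to -0.21, limma adjusted p = 0.113) and 0.14 in the ZnF1 mutant (interval -0.24 to 0.51, adjusted p = 0.811), and neither passed. Between the mutants, Notch2 was 0.72 higher in ZnF1 than in ZnF4 (interval 0.35 to 1.10, adjusted p = 0.0504), just short of the threshold. This last p lay on either side of it under other settings, between 0.0479 and 0.240, with the difference between 0.60 and 0.84.

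Notch1, the receptor of T cell commitment, had its highest rather than its lowest values in the ZnF4 mutant. It was at 7.9 and 9.5 RPKM in WT, 8.1 and 10.1 in the ZnF1 libraries and 16 and 12 in the ZnF4 libraries. The ZnF4 libraries were the highest pair, though they also lay furthest from each other. The difference from WT was 0.65 in the ZnF4 mutant (SE 0.19, interval 0.20 to 1.09, adjusted p = 0.133) and 0.06 in the ZnF1 mutant (interval -0.39 to 0.51, adjusted p = 0.944), and neither passed. ZnF1 minus ZnF4 was -0.59 (interval -1.04 to -0.14, adjusted p = 0.142).

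Because RPKM is scaled by transcript length, the levels of Notch1 and Notch2 can be set against each other within a library. The ratio of Notch2 to Notch1, looked at after the levels had been seen and not tested, was 9.65 and 6.25 in WT, 9.95 and 6.73 in the ZnF1 libraries and 2.67 and 3.9 in the ZnF4 libraries. Both ZnF4 values lay below the other 4. The summed level of both receptors was 84.1 and 68.9 RPKM in WT, 88.7 and 78.1 in the ZnF1 libraries and 58.7 and 58.8 in the ZnF4 libraries.

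**Figure D2:**
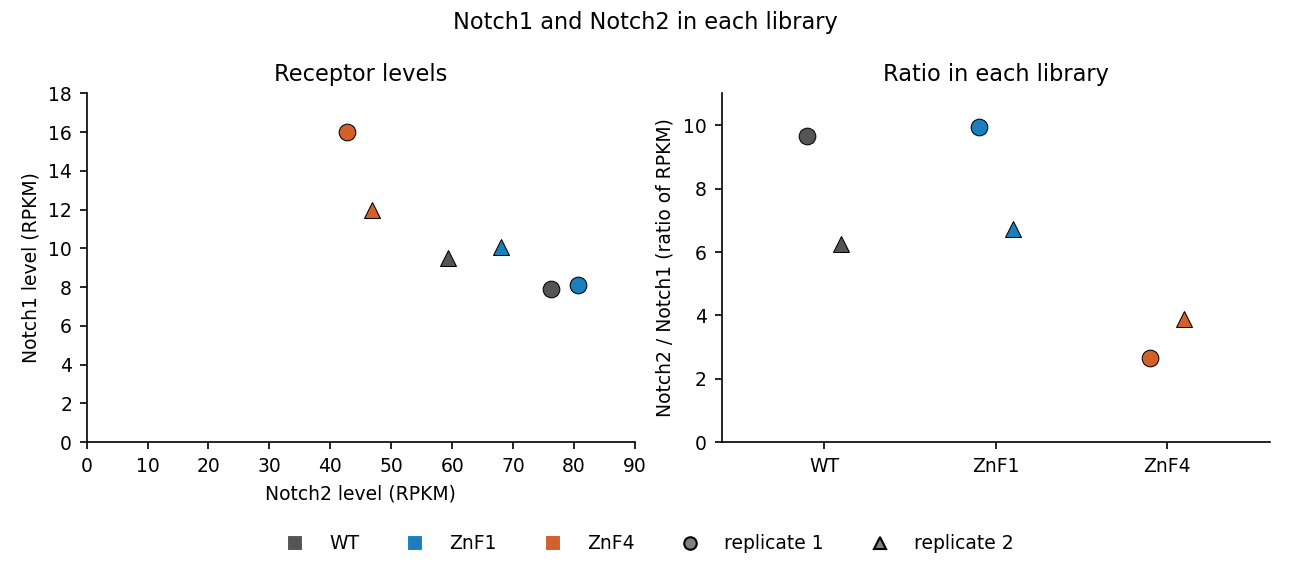
Left, Notch1 against Notch2 level (RPKM) with 1 point per library; right, the ratio of Notch2 to Notch1 in each library, by genotype (colour) and replicate (symbol). The ZnF4 libraries combine the lowest Notch2 with the highest Notch1 levels, with ratios of 2.67 and 3.9 against 6.25 to 9.95 in the others.

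Of the nuclear cofactors, Rbpj differed between the mutants and Maml1 did not pass in any comparison. Rbpj, the DNA-binding subunit of the Notch complex, was at 1.5 and 1.6 RPKM in WT, 1.5 and 1.5 in the ZnF1 libraries and 3.9 and 3.2 in the ZnF4 libraries. Its ZnF4 libraries lay above every other library, by far more than the rounding of values to 0.1. The ZnF1 mutant was lower than the ZnF4 mutant by a difference of -1.01 (SE 0.21, interval -1.51 to -0.52, adjusted p = 0.0396), which passed. The ZnF4 mutant was 0.98 above WT (interval 0.49 to 1.47, adjusted p = 0.0577), which did not pass with all libraries and did without ZnF1 replicate 1 (0.0337) or ZnF1 replicate 2 (0.033), and the ZnF1 mutant was at -0.04 (interval -0.53 to 0.46, adjusted p = 0.977).

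The Rbpj call between the mutants was lost in 10 of 16 other settings: with a replicate block (adjusted p = 0.0516), a term for sex (0.0515), quantile normalization (0.0519), only the 2 genotypes compared (0.0793) or no filter (0.163), and when any one library except ZnF1 replicate 1 was left out (0.0732 to 0.215). Without single libraries the difference lay between -1.14 and -0.89. The other 2 transcript rows of Rbpj were listed at 0 in all libraries although transcripts of a gene share exons; among 2039 tested names with several rows, 13.3% had values in 1 row only, and whether reads of Rbpj were left out was not tested. Maml1, a Mastermind coactivator, was at 17.2 and 15.1 RPKM in WT, 16.6 and 17.0 in the ZnF1 libraries and 14.1 and 13.4 in the ZnF4 libraries. The ZnF4 pair was lowest by a small margin, and the difference from WT was -0.22 (interval -0.52 to 0.07, adjusted p = 0.409). ZnF1 minus WT was 0.06 (interval -0.24 to 0.35, adjusted p = 0.914), and ZnF1 minus ZnF4 was 0.28 (interval -0.01 to 0.57, adjusted p = 0.271).

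Among the targets, Dtx1 was the gene that passed in the ZnF4 mutant. Dtx1 encodes Deltex, a ubiquitin ligase that binds the Notch intracellular part and is itself induced by NOTCH2 in marginal zone B cells. It was at 22.6 and 22.5 RPKM in WT, 18.3 and 13.8 in the ZnF1 libraries and 5.6 and 6.7 in the ZnF4 libraries. The 3 genotypes did not overlap, with WT highest, the ZnF1 mutant between and the ZnF4 mutant lowest. Dtx1 fell by 1.80 on the log2 scale from WT to the ZnF4 mutant (SE 0.17, interval -2.19 to -1.41, limma adjusted p = 0.00549), and by rank of p it stood 14 among the 10322 genes. It was also 1.31 higher in ZnF1 than in ZnF4 libraries (interval 0.91 to 1.70, adjusted p = 0.0078), so the mutants differed in the direct test. The ZnF1 value was -0.49 against WT (interval -0.89 to -0.10, adjusted p = 0.311), which did not pass.

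The Dtx1 difference in the ZnF4 mutant lay between -1.92 and -1.68 in all 17 other settings and was called in 12 of them. It was not called without a filter on low values (limma adjusted p = 0.0549), and it was called with a term for sex (0.0184). The call was also lost without either WT library (-1.80 and -1.80) or either ZnF4 library (-1.68 and -1.92). Those settings left 1 library in that genotype, and few or no genes of the whole table were called in them. Their loss of the call is therefore not particular to Dtx1. The Dtx1 difference between the mutants, likewise, was not called without ZnF4 replicate 1 (1.19, adjusted p = 0.124), without ZnF4 replicate 2 (1.43, 0.0845) or without a filter (0.0911). Marker levels of other B cell stages also differed: 8 marginal zone genes summed to 423 and 426 RPKM in WT, 410 and 400 in the ZnF1 libraries and 645 and 674 in the ZnF4 libraries. Plac8 supplied most of the sum in every library. In the ZnF4 mutant 5 of these genes lay above WT and 3 below. Of the 8, 1 (Cd36) was called higher in the ZnF4 mutant than in WT and 1 (Tm6sf1) lower, beside 1.78% and 1.41% of all tested genes. Cr2, the complement receptor of marginal zone cells, was at 24.7 and 23.1 RPKM in WT and 25.2 and 38.6 in the ZnF4 mutant. It was highest in the ZnF1 libraries, at 44.1 and 42.1. The 8 pro-B and pre-B cell genes summed to 41.3 and 60.8 in WT, 63.2 and 75.2 in the ZnF1 libraries and 188 and 158 in the ZnF4 libraries, where Igll1 supplied most of the sum. Of these 8, 7 were tested, and in the ZnF4 mutant 4 lay above WT and 3 below. Igll1, Vpreb1 and Kit were called higher, where 1.78% of all tested genes were. Rag1 fell by 2.18 (adjusted p = 0.0109), where 1.41% of all tested genes were called lower. Dntt was at -2.88 (adjusted p = 0.0514) and Rag2 at -1.09 (adjusted p = 0.11), neither passing. Vpreb2, which was not tested, was at 0.6 RPKM in both WT and 0.1 in both ZnF4 libraries. The part of these cells in the level of Dtx1 was not tested.

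Nrarp, the gene of a small ankyrin repeat protein that limits Notch signalling and is induced by it, had the same order in the ZnF4 mutant at a much lower level. It was at 1.0 and 0.9 RPKM in WT, 1.3 and 1.1 in the ZnF1 libraries and 0.2 and 0.3 in the ZnF4 libraries. The ZnF4 libraries were lowest and the ZnF1 libraries highest, with no overlap, but values of 0.2 and 0.3 sit close to the rounding step of 0.1. Its mean of 0.80 RPKM over the libraries left it under the filter. With the filter lowered to a mean of 0.5 RPKM, a setting chosen after the data were seen, ZnF4 minus WT was -0.95 (interval -1.52 to -0.38, adjusted p = 0.0946) and ZnF1 minus ZnF4 was 1.18 (interval 0.61 to 1.75, adjusted p = 0.0384). Leaving out 1 library at that filter gave an adjusted p between 0.0457 and 0.196 for the second value, under the threshold only without ZnF1 replicate 1, and with no filter it was 0.0598.

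The HES repressors, which block lineage programmes downstream of Notch, showed no such pattern together. Hes1, the best known direct target, was at 17.4 and 18 RPKM in WT, 19 and 20 in the ZnF1 libraries and 20 and 16.1 in the ZnF4 libraries. The ZnF4 libraries spanned the WT values, and ZnF4 minus WT was 0.02 (interval -0.31 to 0.35, adjusted p = 0.962). ZnF1 minus WT was 0.14 (interval -0.19 to 0.46, adjusted p = 0.777), and ZnF1 minus ZnF4 was 0.12 (interval -0.21 to 0.44, adjusted p = 0.715).

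Hes5 was about as weak as Rbpj, at 2.0 and 2.1 RPKM in WT, 1.4 and 1.1 in the ZnF1 libraries and 1.1 and 1.0 in the ZnF4 libraries. Both mutants lay below WT with no overlap, and the mutants met each other at 1.1. The differences from WT were -0.55 in the ZnF1 mutant (SE 0.24, interval -1.11 to 0.01, adjusted p = 0.431) and -0.72 in the ZnF4 mutant (interval -1.28 to -0.16, adjusted p = 0.175), and neither passed; both use the same WT libraries. Between the mutants the difference was 0.17 (interval -0.39 to 0.73, adjusted p = 0.763). Ptcra, which encodes the pre-T cell receptor alpha chain and is a Notch target of T cell progenitors, was listed at 0 in all 6 libraries.

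**Figure D3:**
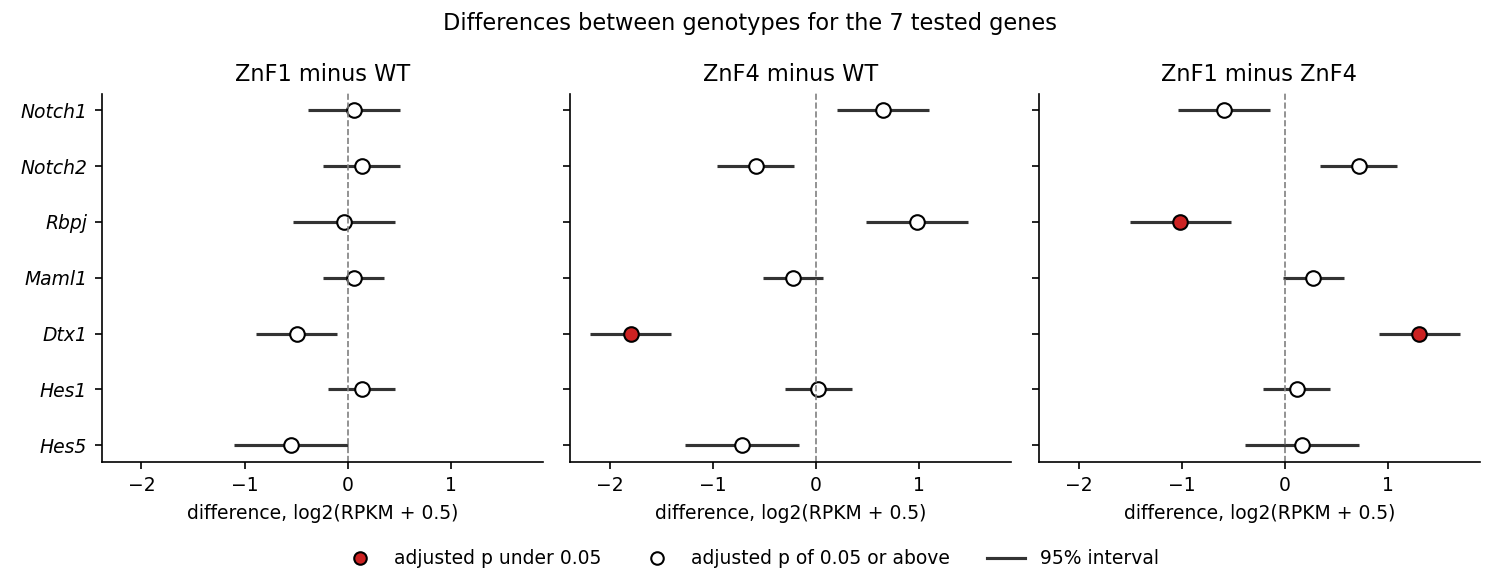
Difference on the log2(RPKM + 0.5) scale for the 7 tested genes in the 3 comparisons, with 95% intervals from limma; red points have an adjusted p under 0.05. Dtx1 is lower in the ZnF4 mutant than in WT (-1.80) and than in the ZnF1 mutant, Rbpj is higher in ZnF4 than in ZnF1 libraries, and no gene is red in ZnF1 minus WT.

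Counted over the tested genes, 1 of 7 was called in the ZnF4 mutant against WT (Dtx1, lower), where 3.2% of all 10322 tested genes were called and 1.41% were called lower. The libraries did not overlap for 6 of 7, against 50.4% of all tested genes: 2 were higher in the ZnF4 mutant (Notch1 and Rbpj, against 23.1%) and 4 lower (against 27.2%). An unadjusted p under 0.05 was found for 5 of 7, beside 17.4% of all genes. None of 7 was called in the ZnF1 mutant against WT, where limma called 0.271% of all genes (0.0969% higher and 0.174% lower). Of the 7, 1 (Dtx1) had an unadjusted p under 0.05, beside 11.9% of all genes, and the libraries of 3 did not overlap, against 41.5%: Hes1 was higher (against 21.1%) and Dtx1 and Hes5 were lower (against 20.3%). Between the mutants 2 of 7 were called, Dtx1 higher and Rbpj lower in the ZnF1 mutant, where 4.78% of all genes were called, 2.08% higher and 2.69% lower. The libraries of 5 of 7 did not overlap, against 46.8%: 3 were higher in ZnF1 (Notch2, Maml1 and Dtx1, against 25.8%) and 2 lower (Notch1 and Rbpj, against 21%). An unadjusted p under 0.05 was found for 4 of 7, beside 20% of all genes. The median difference of the 7 was -0.22 in the ZnF4 mutant and 0.06 in the ZnF1 mutant, beside -0.02 and -0.00 over all tested genes. In order of level, Notch2 led in each genotype, above 96.7% of gene names in WT and 94.5% in the ZnF4 mutant; Dtx1 held rank 2 in WT, ahead of Hes1 and Maml1, and rank 5 in the ZnF4 mutant, behind Hes1, Notch1 and Maml1. Among the 8 genes above Notch3 and Ptcra, neighbours whose libraries overlapped were Maml1 and Dtx1, and Hes5 and Nrarp, in the ZnF1 mutant, and Notch1 and Maml1 in the ZnF4 mutant. Notch3 and Ptcra, at or near 0, could not be ordered in WT or in the ZnF4 mutant.

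A list of 72 other Notch pathway genes was set beside these 10, of which 48 passed the filter. In the ZnF4 mutant 3 of 48 were lower than WT and 0 higher, where 1.41% and 1.78% of all tested genes were, with a median difference of -0.11 beside -0.02 over all tested genes. In the ZnF1 mutant 0 of 48 passed by limma, beside 0.271% of all tested genes, and the median was 0.02 beside -0.00. An unadjusted limma p under 0.05 was found for 5 of 48 in the ZnF1 mutant, beside 11.9% of all tested genes. In the ZnF4 mutant it was found for 7, beside 17.4%, and between the mutants for 12, beside 20%. Between the mutants 3 of 48 were higher in ZnF1 and 0 lower, beside 2.08% and 2.69% of all tested genes (median 0.08 beside 0.03). All these calls were lost when either ZnF4 library was left out, and those against WT also without either WT library. For the ZnF4 mutant against WT, few or no genes of the whole table were called in those settings, so that loss is not particular to the list. Between the mutants a call was left without either WT library or without ZnF1 replicate 1. In the ZnF1 mutant a lower call appeared without ZnF1 replicate 1, where far more genes of the whole table were called than with all libraries. The ZnF1 library left in that setting was replicate 2, which stood apart in granulocyte, monocyte and erythroid RNA.

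None of the 8 genes of ligands and ligand-like proteins passed the filter: Jag2 and Dll1, the highest of them, were between 0.4 and 1.3 RPKM and between 0.4 and 1.0. Notch4 was at 0.1 RPKM in every library. The receptor is given its sugars by fringe enzymes. Lfng, a fringe gene needed for marginal zone B cells, was at 15 and 11 RPKM in WT, 14.7 and 14.3 in the ZnF1 libraries and 5.9 and 8.5 in the ZnF4 libraries. Both ZnF4 libraries were below the rest. Lfng was called between the mutants (0.98 higher in ZnF1, interval 0.49 to 1.47, adjusted p = 0.0432) and not against WT in the ZnF4 mutant (-0.82, interval -1.30 to -0.33, adjusted p = 0.0961). The related Mfng was at -0.31 in the ZnF4 mutant (adjusted p = 0.387), and Rfng (-0.17) and Pofut1 (-0.15), which adds the fucose that fringe extends, had the smallest p of this group in the ZnF1 mutant (adjusted p = 0.748 and 0.758).

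Among the proteases, 0 of 7 tested genes passed in any comparison. Over all tested genes the share called was 0.271% in the ZnF1 mutant, 3.2% in the ZnF4 mutant and 4.78% between the mutants. Adam10, which makes the first activating cut in the bound receptor, was at 58.7 and 54.8 RPKM in WT, 48 and 37.6 in the ZnF1 libraries and 44.6 and 36.5 in the ZnF4 libraries. WT was highest, but the values of -0.41 in ZnF1 (adjusted p = 0.378) and -0.49 in ZnF4 (adjusted p = 0.175) did not pass. Psen2, a gene of gamma-secretase, which makes the last cut, was at -0.30 in the ZnF1 mutant (adjusted p = 0.395). Between the mutants the smallest p of the group was that of Adam17 (-0.29, adjusted p = 0.254).

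Coactivators and corepressors also gave no call, with 7 and 11 tested genes, beside 0.271%, 3.2% and 4.78% of all tested genes in the same 3 comparisons. Maml3, a relative of Maml1, was at 3.5 and 2.9 RPKM in WT, 1.2 and 1.8 in the ZnF1 libraries and 2.8 and 2.8 in the ZnF4 libraries. Its ZnF1 libraries were lowest, at -0.90 against WT (adjusted p = 0.199) and -0.74 against ZnF4 (adjusted p = 0.126). The acetyltransferase genes Ep300 (0.19 in ZnF1 against WT, adjusted p = 0.677), Kat2a (-0.26 in ZnF4, adjusted p = 0.322, and 0.41 between the mutants, adjusted p = 0.111) and Kat2b (0.22 in ZnF4, adjusted p = 0.56) did not pass. Among corepressors, the Groucho family gene Tle1 was at -0.38 in ZnF1 against WT (adjusted p = 0.609) and -0.76 against ZnF4 (adjusted p = 0.136). Kdm5a was at -0.20 in ZnF1 (adjusted p = 0.611), Sap30 at 0.36 in ZnF4 (adjusted p = 0.351), and Spen at 0.35 between the mutants (adjusted p = 0.282).

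In the trafficking and turnover group, 2 of 11 tested genes fell in the ZnF4 mutant, beside 1.41% of all tested genes, and none rose, beside 1.78%. Nedd4, the gene of a ubiquitin ligase that can act on Notch receptors, was at 47.5 and 53.9 RPKM in WT, 49.1 and 45.9 in the ZnF1 libraries and 26.2 and 21.3 in the ZnF4 libraries. The ZnF4 pair stood clear of the other libraries. Nedd4 fell by 1.08 against WT (interval -1.42 to -0.75, adjusted p = 0.0106) and was 0.99 higher in ZnF1 than in ZnF4 libraries (adjusted p = 0.0117). Dtx3l, a Deltex relative that also belongs to the interferon response, was at 30.6 and 31.9 RPKM in WT, 35.2 and 29.1 in ZnF1, and 20.7 and 18.2 in ZnF4. It was at -0.67 against WT (adjusted p = 0.0496, just under the threshold) and was 0.71 higher in ZnF1 than in ZnF4 (adjusted p = 0.0331). The 3 list calls in the ZnF4 mutant became 2 with log2(RPKM + 1), quantile normalization or a replicate block. They were also 2 with a term for sex, without an intensity trend or with a filter of 0.5. In the ZnF1 mutant, Numb, an inhibitor of Notch, and Mib2, which acts on ligands, were at 0.30 and 0.20 against WT (adjusted p = 0.605 and 0.662).

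Of 15 other genes known as Notch targets in one tissue or another, 7 passed the filter. Il2ra, the interleukin 2 receptor alpha chain and a Notch target of T cell progenitors, was at 9.9 and 13.1 RPKM in WT, 5.8 and 3.3 in the ZnF1 libraries and 2.2 and 1.5 in the ZnF4 libraries. As with Dtx1, the genotypes did not overlap and the ZnF1 mutant lay between. Il2ra fell by 2.36 in the ZnF4 mutant (interval -3.03 to -1.69, adjusted p = 0.00832), while the ZnF1 value of -1.28 (interval -1.95 to -0.61, adjusted p = 0.152) and the 1.07 between the mutants (adjusted p = 0.0835) did not pass. Cr2, a target in marginal zone cells, was at 0.84 in the ZnF1 mutant against WT (adjusted p = 0.163), and Myc was 0.52 higher in ZnF1 than in ZnF4 (adjusted p = 0.203), neither passing. The T lineage targets Gata3 and Bcl11b were at or below 0.1 RPKM in every library, as were Hey1, Hey2, Hes2, Hes3 and Hes7.

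**Figure D4:**
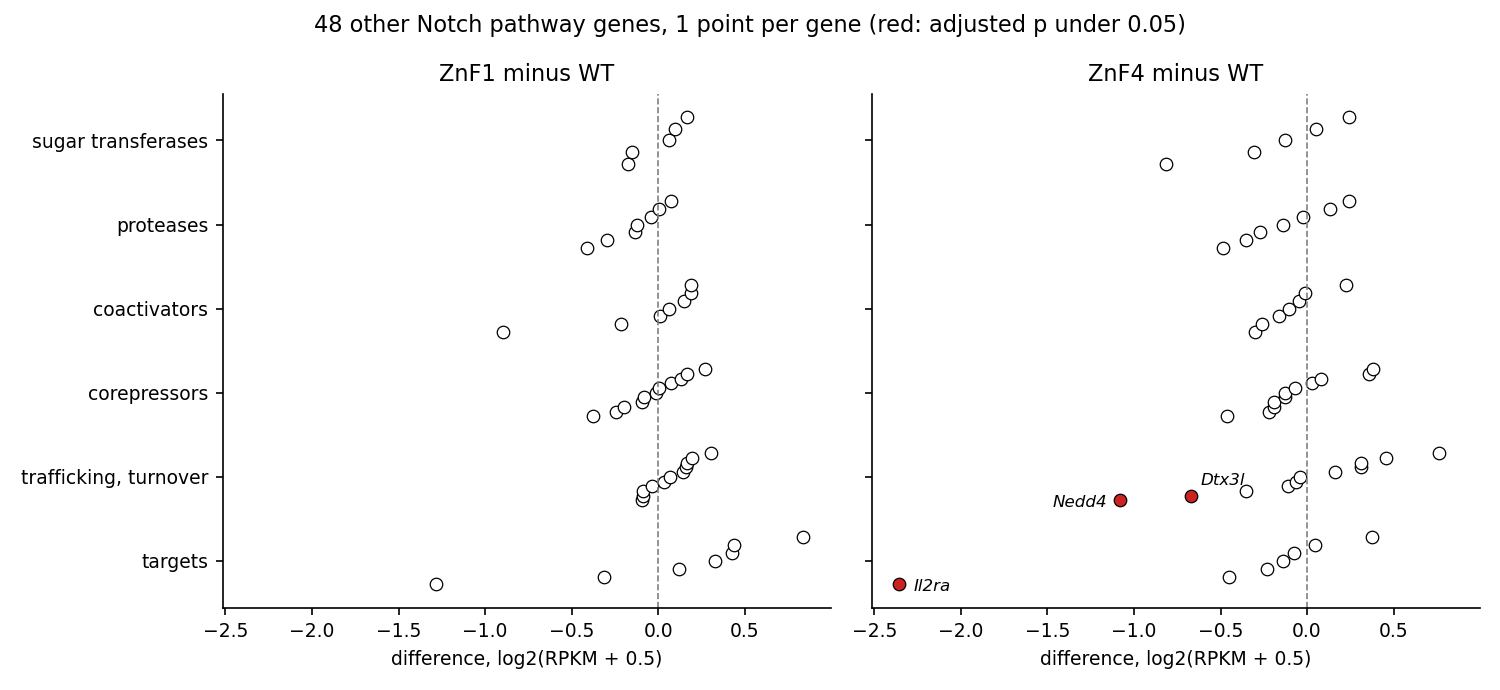
Differences from WT on the log2(RPKM + 0.5) scale for the 48 tested genes of the pathway list, 1 point per gene in rows by role, ZnF1 mutant left and ZnF4 mutant right. Red points have an adjusted p under 0.05: Nedd4, Dtx3l and Il2ra on the right, none on the left.

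To describe which genes followed the same pattern over the 6 libraries, the 3 tested genes with the highest Pearson r of log2 values were taken for each member. The points share genotypes and there are 10322 tested genes to choose from, so the values are a description. Closest to Dtx1 were Leprotl1 (r = 0.994), Plcd3 (0.993) and Pla2g12a (0.993); Leprotl1 was at 14.6 and 13.1 RPKM in WT, 11.3 and 8.6 in ZnF1 and 4.3 in both ZnF4 libraries. Hes5 was closest to Sufu (0.997), Pip4k2b (0.996) and Prkce (0.995), and Sufu, an inhibitor of Hedgehog signalling, was at 28.9 and 31.1 RPKM in WT, 18.6 and 12.9 in ZnF1 and 13.1 and 10.9 in ZnF4. Rbpj was closest to Ccl22 (0.994), Lrrn3 (0.993) and Iqsec2 (0.993), each near 1 RPKM or below outside the ZnF4 mutant. Notch2 was closest to Cnr2 (0.995), Myh9 (0.994) and Klf10 (0.994), and Notch1 to Tceal8 (0.989), Suv420h2 (0.988) and Csf2rb2 (0.986). Maml1 was closest to Atp6v0d1 (0.987), D1Bwg0212e (0.983) and Rnf216 (0.981), and Hes1 to Ino80d (0.981), Per2 (0.970) and Arhgap11a (0.970).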

How the data were processed

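The authors deposited 1 table of RPKM for 26531 RefSeq transcripts with their lengths, rounded to steps of 0.1; mm9, TopHat and bedtools are named per the submitters' processing notes, and versions, strand and the read total used for scaling are not given in the sources used here. Whole reads could not be recovered (best share 40.8% to 50.0% of values for transcripts shorter than 150 bases, within 0.15 reads), so depth is unknown and no counting interval is given.

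Values were used as log2(RPKM + 0.5). Using limma 3.58.1 (R 4.3.3), each genotype was given its own coefficient in a single fit of the 6 libraries (intensity trend, 3 residual degrees of freedom, two-sided moderated test, Benjamini-Hochberg over 10322 genes with a mean of at least 1 RPKM). The fit was tested on simulated data. All 6 value columns were used.

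The members, lists, tests and naming rule (all members, called list genes, otherwise the 2 of smallest p per list, and the 3 genes most alike over libraries) were chosen with earlier results of these data known. Some genes that the rule names are not reported here. Of 77 marker names, 75 were in the table. Alternatives were 10 other settings, each library left out in turn, and 1 filter added after seeing the data.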

Additional observations from a re-analysis of the deposited data

How the results depend on the processing

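Of 402 values of the 7 tested genes and Ikzf1 under other settings, 366 kept direction and side of the threshold. Most of them belong to differences that were not called in the main fit, so this share says little about the calls. A call was lost in 18 values and gained in 9, and 9 changed direction. The call of Dtx1 was kept in 12 of 17 settings in the ZnF4 mutant and in 14 of 17 between the mutants. That of Rbpj between the mutants was kept in 6 of 16. The count of all genes called in the ZnF1 mutant (28) became 104 without a filter, 13 with quantile normalization, 0 with only the 2 genotypes (1053 at an unadjusted p under 0.05) and 0 with a term for sex (863), and 0 to 512 without 1 library. In the ZnF4 mutant (330) it was 594 with only the 2 genotypes, 171 with a term for sex and 0 to 591 without 1 library; between the mutants (493) it was 327 without a filter, 249 with only the 2 genotypes and 0 to 814 without 1 library. Calls among the 10 genes in the ZnF4 mutant (1) became 0 without a filter and 2 with only the 2 genotypes, without an intensity trend or with a filter of 0.5, Rbpj being the second (adjusted p = 0.0309, 0.0232 and 0.0487); between the mutants (2) they became 0 without a filter, and 1 with only the 2 genotypes or a term for sex. Without 1 library both lay between 0 and 2. Pathway list calls without a filter became 1 in the ZnF4 mutant (higher, unlike the 3 lower calls) and 1 between the mutants (lower in ZnF1, unlike the 3 higher calls); between the mutants they were also 1 with only the 2 genotypes or without a trend. Without 1 library they were 0 to 1 in the ZnF1 mutant, 0 to 3 in the ZnF4 mutant and 0 to 4 between the mutants. A setting without a filter tests 22098 genes and one without a library has fewer samples; for the others the cause was not tested.

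Values near 0 changed sign: Rbpj in the ZnF1 mutant was 0.027 with a term for sex, and without 1 library the ranges were -0.092 to 0.21 for Notch1, -0.041 to 0.315 for Notch2, -0.033 to 0.149 for Maml1 and -0.076 to 0.179 for Ikzf1 in the ZnF1 mutant, and for Hes1 -0.133 to 0.172 in the ZnF4 mutant and -0.036 to 0.268 between the mutants. The labels tie same-numbered libraries by a number alone, although replicate 2 of both mutants also shared the pattern of Xist and Ddx3y; their deviations correlated at 0.28 (WT and ZnF1), -0.03 (WT and ZnF4) and 0.21 (ZnF1 and ZnF4). A replicate block gave 27, 327 and 529 calls over all genes in the 3 comparisons, 0, 1 and 2 among the 10 genes and 0, 2 and 2 in the list; between the mutants it put Notch2 under the threshold (adjusted p = 0.0499) and Rbpj above it.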
